A study of Caenorhabditis elegans with 16 samples.

Results

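The ephrin, Eph receptor, semaphorin, plexin and LAR phosphatase genes that act when the epidermis closes over the ventral side of the worm embryo were followed across 4 genotypes of Caenorhabditis elegans. They were 9 of the 46726 genes in the count table, taken by symbol: the ephrins vab-2, efn-2, efn-3 and efn-4, the Eph receptor gene vab-1, the semaphorin gene mab-20, the plexins plx-1 and plx-2, and the receptor phosphatase gene ptp-3. The symbols themselves use no measured value, but the set was chosen by its function with an earlier result of these data known, namely that efn-4 differed between edc-4 and WT embryos. Values of that comparison are therefore given as a description. Of the 9 genes, 8 passed the filter on low counts and efn-3 did not.

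The libraries were RNA of mixed-stage embryos obtained by bleaching, from untreated cultures grown in parallel, with 4 independent biological replicates, numbered 2 to 5, of each genotype. The groups were WT (strain N2), edc-3(ok1427) (strain RB1311), edc-4(qe49) (strain FD135) and the double mutant edc-3(ok1427); edc-4(qe49) (strain FD146). Each genotype was represented by a single strain, so that a difference between genotypes cannot be told apart from other differences between strains. The products of both genes promote the removal of the mRNA cap. The libraries held 34.1 to 52.9 M counts on genes (median 44.0 M). The edc-4 transcript stood at 20.4 to 35.3 CPM (the count scaled to library size) in the libraries carrying edc-4(qe49), and no library without that allele was under 139 CPM. The edc-3 counts, at 57.4 to 82.5 CPM with edc-3(ok1427) and 70.8 to 116 CPM without it, overlapped and do not check that allele. Markers of the developing embryo were abundant, and those of adult yolk synthesis and sperm were near 0: the summed level of 6 vitellogenin genes was 0.989 to 2.74 CPM and that of 19 sperm genes 0.221 to 0.726 CPM, against 3910 to 8570 CPM for 22 muscle genes. The sum of 18 oocyte and early embryo genes was well above 0 and varied between libraries, from 596 to 2450 CPM.

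Ephrins are ligands held at the cell surface that bind Eph receptor tyrosine kinases on neighbouring cells, and both sides can respond to the contact. Semaphorins, secreted or membrane-bound, are read by plexins in a similar way. In the worm embryo these systems act mainly in neuroblasts, which close the gastrulation cleft and then form the surface over which the ventral epidermal cells meet at the midline in ventral enclosure. VAB-1 is the Eph receptor of the worm and VAB-2 (also called EFN-1), EFN-2 and EFN-3 are its ligands, whereas the divergent ephrin EFN-4 acts largely apart from VAB-1 in genetic tests. MAB-20 is a secreted semaphorin that signals through PLX-2, PLX-1 is the receptor of the membrane-bound semaphorins SMP-1 and SMP-2, and PTP-3 is a LAR-type receptor tyrosine phosphatase whose function overlaps that of VAB-1.

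The genes differ widely in size (positions in WBcel235, from the Ensembl release 115 annotation). The ephrin genes are short: efn-4 (chromosome IV, 559234 to 568147, plus strand) has 1 transcript of 4 exons for a protein of 348 residues, and its exons overlap no other annotated gene. Next to it in size, vab-2 (IV, 3761195 to 3766826, minus strand) encodes up to 279 residues, efn-2 (IV, 10576350 to 10578288, plus strand) 218 and efn-3 (X, 13475876 to 13477456, minus strand) 211. The receptor genes are long. The gene vab-1 (II, 4572000 to 4590970, plus strand) encodes 1117 residues, plx-1 (IV, 959521 to 984395, plus strand) up to 1956, plx-2 (II, 14417855 to 14424891, minus strand) 1785, and ptp-3 (II, 10975539 to 11012247, plus strand), with 14 annotated transcripts, up to 2248. The ligand gene mab-20 (I, 1644588 to 1651457, minus strand) encodes up to 658 residues. Counts were per gene, so transcripts of ptp-3, plx-1, mab-20 and vab-2 were not separated. Exons of vab-1, plx-1 and efn-3 share 32, 12 and 51 bases with a gene on the other strand (ipla-1, egrh-2 and tre-4), and the other 6 genes share none.

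Levels per kb of exon, a rough scale for comparing genes, placed the Eph receptor above all its ligands. The length was the union of annotated exons, so genes with several transcripts, such as ptp-3 and plx-1, may stand too low in the order. Over the 16 libraries vab-1 averaged 116 CPM per kb, mab-20 74.6, efn-4 62.6, vab-2 51.1, efn-2 48.1, ptp-3 45.1, plx-1 40.1 and plx-2 30.2. The level of vab-1 was above that of mab-20 in 16 of 16 libraries, and plx-1 was above plx-2 in 16 of 16. In the middle of the order the neighbours overlapped: vab-2 was above efn-2 in 11 of 16 libraries, and efn-2 above ptp-3 in 10. In WT the ephrins efn-4, efn-2 and vab-2 stood at 50.6 ± 6.69, 50.2 ± 9.98 and 44.6 ± 3.55 CPM per kb (SD, n = 4 each), within each other's spread. In the double mutant efn-4 was at 73.6 ± 0.943 CPM per kb, above every value of vab-2 and efn-2 there and within the range of mab-20 (74.8 ± 4.22). In edc-4 it was at 71.6 ± 4.61 CPM per kb, likewise above vab-2 (56.7 ± 6.91) and overlapping mab-20 (75.8 ± 2.1).

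**Figure D1:**
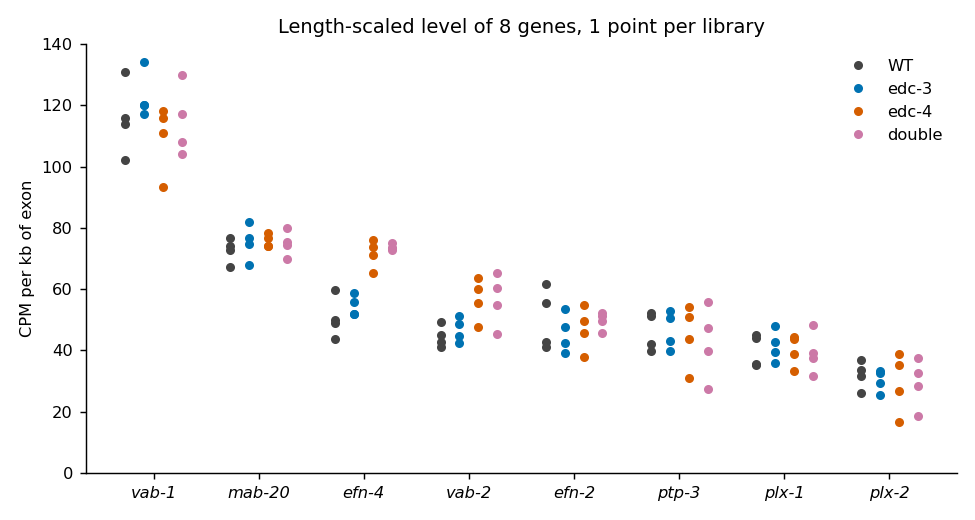
Level of 8 genes in CPM per kb of exon (y axis, linear from 0), with 1 point for each of the 16 libraries, coloured by genotype and ordered by mean. The gene vab-1 is highest at a mean of 116 and plx-2 lowest at 30.2, and only efn-4 shows edc-4 and double libraries all above those of WT and edc-3.

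The remaining ephrin, efn-3, was barely present. It had 22 counts in all 16 libraries together, at most 3 in any of them, and 0 in 4 libraries, where a count of 0 allows up to 0.0587 to 0.0919 CPM (3 counts; counting error only). The 4 edc-3 libraries together gave 4 counts and each other genotype gave 6, so a difference between genotypes was not detectable at this depth.

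The ephrin gene efn-4 was above its WT level in each genotype that carried edc-4(qe49). Its levels in WT replicates 2 to 5 were 66.1, 67.3, 59.2 and 80.9 CPM, and in edc-3 they were 70.0, 79.2, 75.3 and 70.2 CPM. In edc-4 they were 88.4, 99.7, 103 and 96.3 CPM, and the double mutant libraries had 99.2, 101, 99.3 and 98.4 CPM. The 8 libraries with the allele ran from 88.4 to 103 CPM (median 99.2) and the 8 without it from 59.2 to 80.9 CPM (median 70.1), with no overlap. This split is a description, since it holds the edc-4 and WT libraries through which efn-4 was chosen; 0.136% of the 16880 tested genes showed no overlap in it, and nothing is read from that share. Means were 68.4 ± 9.04 CPM for WT, 73.7 ± 4.45 for edc-3, 96.8 ± 6.23 for edc-4 and 99.6 ± 1.27 for the double mutant (SD, n = 4 libraries).

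**Figure D2:**
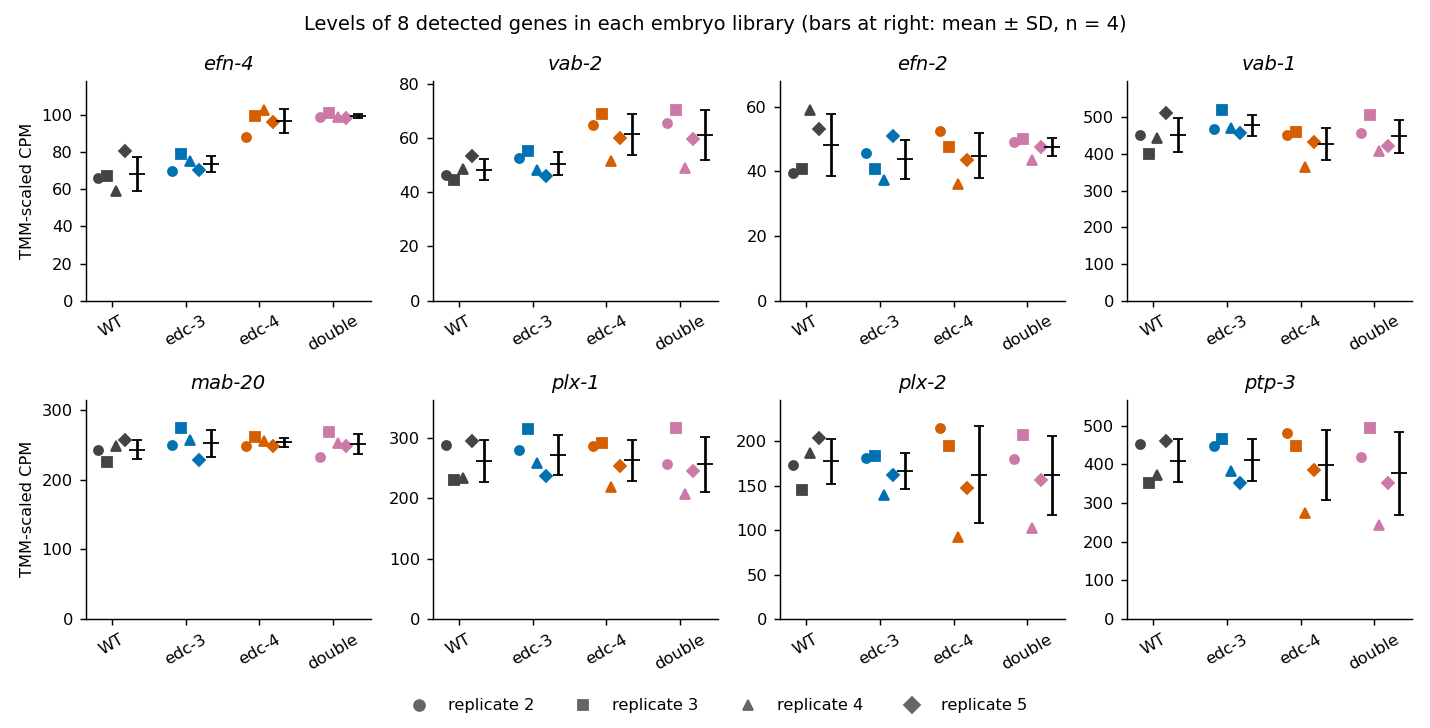
TMM-scaled CPM (y axes, linear from 0) of 8 genes in each of the 16 embryo libraries, grouped by genotype, with symbols for the replicate number and, at the right of each group, the mean ± SD (n = 4). For efn-4 the edc-4 and double libraries (88.4 to 103 CPM) lie above all WT and edc-3 libraries (59.2 to 80.9 CPM), while plx-2 and ptp-3 are lowest in replicate 4 of edc-4 and of the double mutant.

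The comparison of the double mutant with edc-3 asks what edc-4(qe49) changes where edc-3(ok1427) is already present, in libraries other than those through which efn-4 came to notice. There efn-4 was 1.35-fold higher (log2 0.43, SE 0.10), higher in 16 of 16 pairings of libraries, and of all tested genes 4.39% had groups that did not overlap. By the edgeR quasi-likelihood test it ranked 18th of 16880 genes (unadjusted p = 0.000302), and over all genes it did not pass (adjusted p = 0.283). That fit takes its spread from all 16 libraries, also those through which efn-4 was chosen. With only the compared groups in the edgeR fit it had log2 0.43 (SE 0.09, unadjusted p = 0.00032, adjusted p = 0.284). In this comparison 0 of the 8 tested members were called, where 0.0355% of all genes were, and 2 members had an unadjusted p under 0.05 against 5.01% of all genes. An exact two-sided permutation test of the efn-4 log2 CPM of these 8 libraries gave p = 0.0286, the smallest that 4 against 4 allow. DESeq2 called it (log2 0.45, adjusted p = 0.045), as did the edgeR fit with the stage score described further on as a covariate (log2 0.41, adjusted p = 0.0262).

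Against WT the double mutant had efn-4 1.46-fold higher (log2 0.54 with SE 0.10; edgeR quasi-likelihood test, adjusted p = 0.0205). It was the 1 member called of the 8 tested, in a comparison that called 0.207% of all genes and in which 7.43% of genes did not overlap between the groups. The call is close to the threshold. It ended when WT replicate 2, 3 or 4 or double replicate 2, 3 or 5 was left out (adjusted p 0.0745 to 0.102), without all libraries numbered 4 (log2 0.48, adjusted p = 0.0856) and with only these 2 groups in the fit (adjusted p = 0.161), while log2 stayed between 0.48 and 0.63 over the 16 alternatives. In edc-4 against WT, the comparison behind the choice of the set, the difference of efn-4 was log2 0.50 (SE 0.10), and efn-4 was the 1 member called and the 1 member whose groups did not overlap. The shares over all genes were 0.142% and 2.3%, and nothing is read from them, since these values led to the choice of efn-4. That call was lost in 11 of 16 alternatives, with log2 between 0.42 and 0.59. Both comparisons use the same WT libraries and are not independent of each other. As efn-4 was chosen partly through these WT libraries, its values in the double mutant against WT are also a description. Their adjusted p values are no independent test.

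The comparisons that add edc-3(ok1427) gave smaller values for efn-4, with no call. These comparisons use the WT or the edc-4 libraries through which efn-4 was chosen, and the interaction uses both. Their efn-4 values are therefore a description. In edc-3 against WT efn-4 had log2 0.11 (SE 0.10, adjusted p = 1) and overlapped WT. In the double mutant against edc-4 it had log2 0.04 (SE 0.10, adjusted p = 1), with a range of plus or minus 2 SE from -0.15 to 0.23. The interaction of the alleles, which asks whether the difference made by edc-4(qe49) depends on edc-3(ok1427), was log2 -0.07 (SE 0.14, adjusted p = 1) for efn-4, with a range of plus or minus 2 SE from -0.34 to 0.21. The share of genes called was 0.142% in edc-3 against WT, 0.0296% in the double mutant against edc-4 and 0.0355% in the interaction, and none of the 8 members was called in these 3 tests (edgeR quasi-likelihood). With an unadjusted p under 0.05 the members also numbered 0 in each. DESeq2 called 0 members in these 3 tests as well.

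The ephrin gene vab-2, whose product is a ligand of VAB-1, had values in the same direction that did not pass over all genes in the fit without covariates. Its levels were 46.3, 44.6, 48.7 and 53.5 CPM in the WT libraries, and the edc-3 libraries had 52.5, 55.4, 48.3 and 45.9 CPM. They were 64.9, 68.9, 51.5 and 60.2 CPM with edc-4(qe49) alone and 65.5, 70.5, 49 and 59.5 CPM in the double mutant. Replicate 4 of both genotypes with edc-4(qe49) lay among the WT and edc-3 libraries, and the other 6 lay above all of those. The double mutant differed from edc-3 by log2 0.28 (SE 0.12, unadjusted p = 0.0364, adjusted p = 0.90 by edgeR) and from WT by log2 0.34 (SE 0.12, adjusted p = 0.372). Without the libraries numbered 4 these values were log2 0.34 (adjusted p = 0.75) and log2 0.43 (adjusted p = 0.23). With the stage score as a covariate the difference from WT was called (log2 0.47, adjusted p = 0.019) and that from edc-3 was not (log2 0.33, adjusted p = 0.162). In edc-4 against WT, given as a description, vab-2 had log2 0.35 (SE 0.12).

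The third expressed ephrin gene, efn-2, showed no difference past the test. Means were 48.1 ± 9.55 CPM for WT, 43.7 ± 6 for edc-3, 44.9 ± 6.92 for edc-4 and 47.5 ± 2.78 for the double mutant (SD, n = 4 libraries), and the 4 groups overlapped. In the double mutant against edc-3 it had log2 0.12 (SE 0.14, adjusted p = 0.907). The share of efn-4 in the counts of the 4 ephrin genes, a ratio within each library that no scaling of libraries can alter, was 41.5 ± 4.08% for WT, 43.9 ± 2.5% for edc-3, 47.8 ± 4.66% for edc-4 and 47.9 ± 2.69% for the double mutant (SD, n = 4 libraries). The double mutant libraries ran from 45.7 to 51.7% and those of edc-3 from 41.6 to 46.8%, which overlap, and an exact two-sided permutation test gave p = 0.0857.

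The receptors and the semaphorin showed no difference past the test in any comparison outside edc-4 against WT, and none of them was called there either. The Eph receptor gene vab-1 ranged over 399 to 512 CPM for WT, 456 to 521 for edc-3, 364 to 459 for edc-4 and 407 to 507 for the double mutant. Its difference between the double mutant and edc-3 was log2 -0.10 (SE 0.11, adjusted p = 0.907) and that between the double mutant and WT log2 -0.01 (SE 0.11, adjusted p = 0.964). The phosphatase gene ptp-3 had means of 410 ± 55.8, 412 ± 54, 398 ± 90.6 and 377 ± 106 CPM (SD, n = 4 libraries; WT, edc-3, edc-4 and double mutant), and log2 -0.12 (SE 0.19, adjusted p = 0.773) in the double mutant against WT. Both genes overlapped between all groups.

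The semaphorin gene mab-20 was the steadiest member, from 225 to 274 CPM over the 16 libraries, a span of 1.22-fold. Its log2 differences lay between -0.02 and 0.06 in the 5 comparisons of genotypes, each with SE 0.09. Its receptor gene plx-2 was the most variable detected member, with a span of 2.32-fold. The levels of plx-2 were 174, 145, 187 and 204 CPM in WT and 181, 184, 140 and 162 CPM in the edc-3 libraries. With edc-4(qe49) alone they were 215, 195, 92.6 and 148 CPM, and in the double mutant 180, 207, 103 and 157 CPM. The lowest values were those of replicate 4 of edc-4 and of the double mutant, and the groups overlapped (log2 -0.14, SE 0.22, adjusted p = 0.779 in the double mutant against WT). The other plexin gene, plx-1, was at 261 ± 34.6 CPM in WT and 256 ± 45.3 CPM in the double mutant (SD, n = 4 each; log2 -0.03, SE 0.14, adjusted p = 0.927).

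**Figure D3:**
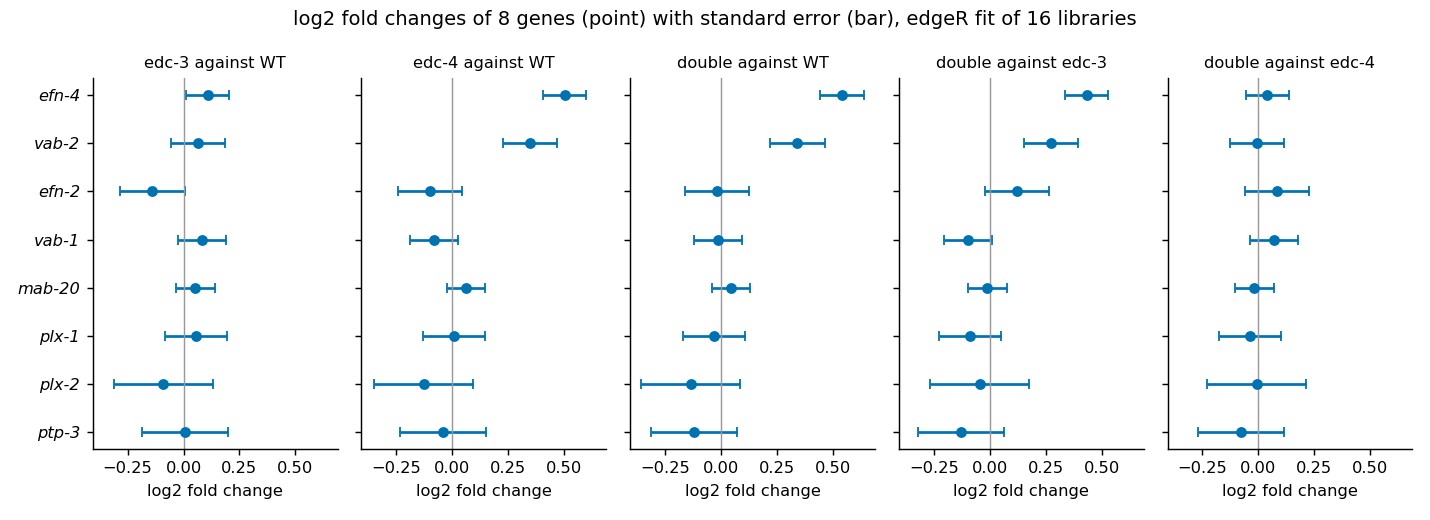
Log2 fold change (x axes) with its standard error (bars) of 8 genes in 5 comparisons of genotypes, from an edgeR fit of 16 libraries. The points of efn-4 lie at 0.50, 0.54 and 0.43 in the comparisons that add edc-4(qe49) and at 0.11 and 0.04 in those that do not, and the intervals of mab-20 are the narrowest.

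The libraries differed in a score built from stage markers, and 3 of the 8 tested members moved with it. This stage score was taken as the mean log2 CPM of 24 genes first transcribed in the early embryo minus that of 22 muscle genes, so that it is higher where early transcripts are higher relative to those of differentiated muscle. No direct staging of the embryos was used here, so the mix of ages and altered expression of these lists cannot be told apart. Its mean was -4.91 ± 0.572 for WT, -4.47 ± 0.485 for edc-3, -4.36 ± 0.973 for edc-4 and -4.05 ± 0.781 for the double mutant (SD, n = 4 libraries), and it was highest in replicate 4 of the double mutant (-2.90) and of edc-4 (-3.08) and lowest in WT replicate 4 (-5.59).

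Over the 16 libraries, 8 members were compared with this score, with permutation tests adjusted over the 8. The permutations ran over all libraries without regard to genotype, so these p values do not separate differences between genotypes from a relation with the score. The plexin gene plx-2 fell with the score (Pearson r = -0.871, permutation p = 4e-05, adjusted p = 0.00032; Spearman rho = -0.756, permutation p = 0.00092, adjusted p = 0.00736), and r was -0.652 without the 2 libraries farthest from the median score, double replicate 4 and edc-4 replicate 4. The ephrin gene efn-2 fell with it as well (r = -0.717, permutation p = 0.00164, adjusted p = 0.00651; rho = -0.718, permutation p = 0.00225, adjusted p = 0.009), with r = -0.765 without those 2 libraries. The relation of ptp-3 (r = -0.712, permutation p = 0.00244, adjusted p = 0.00651; rho = -0.485, permutation p = 0.0583, adjusted p = 0.155) rested on them, since r was -0.20 without them.

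For efn-4 the relation was positive and did not pass (r = 0.495, permutation p = 0.052, adjusted p = 0.0694; rho = 0.432, permutation p = 0.096, adjusted p = 0.192), with r = 0.313 without the same 2 libraries. Of the other 4 members, vab-1 and plx-1 had r = -0.525 and -0.511 (permutation p = 0.0367 and 0.0425, adjusted p = 0.068 each; rho = -0.329 and -0.394, permutation p = 0.212 and 0.132, adjusted p = 0.283 and 0.211), and without the 2 libraries r was -0.06 and -0.04. The relations of vab-2 and mab-20 had r = -0.164 and 0.12 (permutation p = 0.546 and 0.659, adjusted p = 0.624 and 0.659; rho = -0.0794 and 0.162, permutation p = 0.772 and 0.549, adjusted p = 0.772 and 0.628), and r = 0.02 for both without the 2 libraries. After subtraction of each genotype's mean, given as a description, r was 0.405 for efn-4, -0.70 for vab-2, beside -0.715 for ptp-3, and 0.02 for mab-20. The difference of efn-4 between the double mutant and edc-3 was log2 0.41 with the score as a covariate and log2 0.45 (adjusted p = 0.28) without the libraries numbered 4, against 0.43 in the fit of all libraries.

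**Figure D4:**
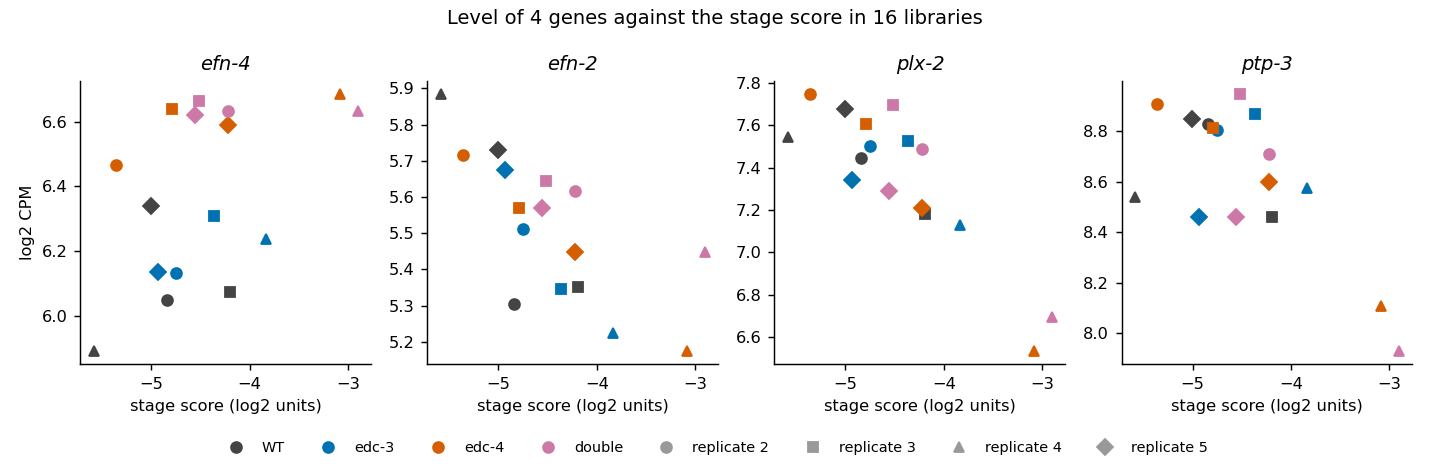
Log2 CPM (y axes) of efn-4, efn-2, plx-2 and ptp-3 against the stage score (x axes, mean log2 CPM of early zygotic genes minus that of muscle genes) in the 16 libraries, coloured by genotype with symbols for the replicate. The edc-4 and double libraries of efn-4 lie above those of WT and edc-3. Replicate 4 of edc-4 (-3.08) and of the double mutant (-2.90) have no WT or edc-3 library at a like score (highest -3.84). The level of plx-2 is lower at higher scores over the 16 libraries together (r = -0.871).

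Among themselves the members formed a group of receptors that rose and fell together. As a description over the 16 libraries, which differ in the stage score, r was 0.935 between plx-1 and ptp-3, 0.916 between plx-2 and ptp-3, 0.838 between vab-1 and plx-1 and 0.80 between vab-1 and ptp-3. With each genotype's mean subtracted, these receptor genes also fell with the stage score, with r from -0.543 (plx-1) to -0.895 (plx-2). The part of double replicate 4 and edc-4 replicate 4 in these correlations was not tested. After subtraction of each genotype's mean, vab-2 joined this group, with r of 0.936 with ptp-3, 0.916 with plx-2 and 0.892 with vab-1, whereas efn-4 had r of 0.07 with ptp-3, -0.12 with plx-2 and 0.28 with vab-1. Between efn-4 and vab-2 r was 0.713 over the libraries as they are and 0.164 within genotypes. Of 9612 other genes with a mean of at least 5 CPM, those most like efn-4 over the 16 libraries were T19H5.4 (r = 0.915), Y54E10A.10 (r = 0.914), pop-1, a TCF transcription factor of Wnt signalling (r = 0.912), F28H1.1 (r = 0.896) and T04D3.5 (r = 0.89). F28H1.1 averaged 69 ± 16.1 (WT), 77.9 ± 10.4 (edc-3), 110 ± 19.2 (edc-4) and 107 ± 2.14 CPM (double mutant). Means of pop-1 were 214 ± 16.6, 225 ± 14.3, 259 ± 20.8 and 252 ± 8.53 CPM, listed likewise (SD, n = 4 each). Both genes were picked by their r with efn-4 over these same libraries. Higher means where efn-4 is higher are built into that choice, and nothing is read from them.

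Genes that work beside the members showed no call. The membrane semaphorin genes smp-1 and smp-2, ligands of PLX-1, had log2 -0.01 (SE 0.15, adjusted p = 0.989) and -0.34 (SE 0.20, adjusted p = 0.481) in the double mutant against WT, and smp-2 went from 34 ± 5.04 to 26.8 ± 5.89 CPM (SD, n = 4 each). Of 13 guidance receptors, ligands and surface partners, among them the Robo gene sax-3, the netrin receptor gene unc-40 and lad-2, an L1 family co-receptor for MAB-20, 0 were called in the double mutant against edc-3 (median log2 0.03) and 0 against WT (median 0.04). Of 20 tested genes of the Rac, WAVE and Arp2/3 actin machinery that drives the epidermal protrusions, 0 were called in either (median log2 0.06 and 0.09), and of 11 genes of the epidermal cell junctions likewise 0 (median -0.01 and -0.03). The median of all tested genes was log2 -0.01 in both comparisons. These lists were called at 0 in edc-3 against WT and in the double mutant against edc-4 too.

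Genes of the cells in which the members act had mostly positive values in the double mutant against edc-3, without a call. Of 8 neuroblast and proneural genes, 7 had positive values in the double mutant against edc-3 (median log2 0.22, range -0.06 to 0.35), and their summed level was 379 to 450 CPM for WT, 393 to 458 for edc-3, 430 to 472 for edc-4 and 459 to 501 for the double mutant. Of 8 epidermal fate genes, 8 were positive in the same comparison (median log2 0.15), with sums of 558 to 655, 555 to 624, 627 to 662 and 630 to 698 CPM. Positive values were not particular to these cells. They were found in 24 of 24 early zygotic genes (median log2 0.24) and 16 of 18 oocyte and early embryo genes (median 0.18). Of 11 genes of the later epidermis, 0 were positive (median log2 -0.07), and of 22 muscle genes 2 were (median log2 -0.19). Each list had 0 members called in this comparison, which called 0.0355% of all genes. With an unadjusted p under 0.05 there were 4 of the 8 neuroblast genes and 1 of the 8 epidermal genes, against 5.01% of all genes, and their part in the efn-4 difference was not tested. In such bulk libraries more cells of a type and more RNA per cell cannot be told apart. Genes of the oocyte and early embryo also differed: of 18, 3 were called higher in the double mutant against WT, where 0.207% of all genes were called, led by the eggshell gene chs-1 (log2 2.38, SE 0.26, adjusted p = 9.43e-05) and the oocyte surface gene egg-1 (log2 2.03, SE 0.35, adjusted p = 0.0126), whose close paralog egg-2 was the other, so that reads may be split between them, and 0 in the double mutant against edc-3. In the other comparisons 3 of these 18 genes were called higher in edc-3 against WT, 2 in the double mutant against edc-4 and 0 in edc-4 against WT.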

How the data were processed

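Total RNA of mixed-stage embryos was sequenced from TruSeq Stranded Total RNA libraries, per the labels' protocols. The deposited table holds raw counts of reads per gene, deposited without normalization; the submitters' processing notes name Trimmomatic, STAR, HTSeq and the build WBcel235. Software versions, gene annotation and strandedness of counting are not stated there. All 16 libraries matched a column by title, and genotype was taken from the labels. From the counts, R 4.3.3 with edgeR 4.0.16 (filterByExpr, minimum count 10 and total 15; TMM) gave 1 quasi-likelihood fit of 16880 genes with a mean per genotype, Benjamini-Hochberg adjustment over all genes and calls at an adjusted p under 0.05. CPM values use TMM-scaled library sizes, log2 CPM has a prior count of 2, an SE is the log2 fold change over the root of its F statistic, and exonic length is the union of annotated exons. DESeq2 1.42.0 and other settings served as alternatives. The pipeline was tested on simulated counts.

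The members, lists and tests were chosen with earlier results of these data known. All 9 members are named; of other lists, up to 2 called genes in each direction; and the 5 genes of highest r with efn-4. Of the listed genes, rga-7 had no match in the table. Replicate pairs within a genotype differed beyond sampling noise (chi-square over degrees of freedom 10.4 to 184). Same-numbered libraries deviated together (r over 0.1) in 11 of 24 pairs (r from -0.493 to 0.656), and the numbers were not taken as pairs in the main fit. The pattern was uneven. In replicate 4 r was 0.521, 0.467 and 0.656 between mutant genotypes, and -0.354, -0.493 and -0.331 between WT and edc-3, edc-4 and the double mutant. A link through the numbers among the mutants therefore remains possible. Between edc-3 and the double mutant r was 0.163, -0.0232, 0.467 and 0.199 in replicates 2 to 5. The exact permutation tests of these groups treated the libraries as unpaired and do not allow for this. Sequences of the members were not used here.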

Additional observations from a re-analysis of the deposited data

Results flagged for a closer look

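In WT replicate 4 efn-4 took 35.5% of the counts of the 4 ephrin genes, whereas the other WT libraries lay at 43.1 to 44.1%, a gap that takes most of the group's range. That library also had the highest efn-2 level (59.1 CPM), the lowest efn-4 level (59.2 CPM) and the lowest stage score (-5.59), and the part of these in the low share was not tested. In the double mutant, replicate 2 had 0.0743 CPM of efn-3 and the other libraries 0.0229 to 0.0276 CPM, which stands for 3 counts against 1 count each. Of 40 groups of 4 libraries examined in this way 2 stood out, and chance alone flags about 1 in 20.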

How the results depend on the processing

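Of 48 log2 fold changes of members (8 genes in 6 tests), 824 values were obtained under the alternatives; 702 kept direction and call, 99 changed sign without a call on either side, 19 lost a call and 4 gained one, and none reversed with a call. Calls outside efn-4 and vab-2 numbered 0. The lost calls were those of efn-4: 11 of 16 alternatives in edc-4 against WT (log2 0.42 to 0.59) and 8 of 16 in the double mutant against WT. In the double mutant against edc-3, efn-4 was called by DESeq2 (log2 0.449) and with the stage covariate (log2 0.41) and in none of the other 14 (adjusted p up to 1); the replicate block gave log2 0.435 (adjusted p = 0.322). The block ended 1 member call, that of efn-4 in edc-4 against WT (log2 0.504), and gave 26, 25, 36, 4, 5 and 7 calls over all genes in the order of the comparisons given next. The difference in the efn-4 share, 4.03 percentage points, was 2.78 with efn-2 left out of the sum, an alternative chosen after seeing the data (exact p = 0.257), and without any 1 library 2.77 (without double replicate 4) to 4.99. With the first principal component in place of the stage score, the calls of plx-2, efn-2 and ptp-3 held (r = -0.807, -0.776 and -0.606). That of ptp-3 again rested on double replicate 4 and edc-4 replicate 4, since r was -0.0448 without them. The component was computed from the same log2 CPM values and is not an independent check. Counts over all genes depended on the tool: DESeq2 called 39 in edc-3 against WT (24 in the edgeR fit), 42 in edc-4 against WT (24), 113 in the double mutant against WT (35), 25 against edc-3 (6), 12 against edc-4 (5) and 17 in the interaction (6). With the stage covariate the counts were 40, 49, 118, 44, 8 and 17 in that order. Without a low-count filter they were 40 in edc-3 against WT, 65 in the double mutant against WT, 12 against edc-4 and 10 in the interaction. With only the compared groups in the fit they were 14 in edc-3 against WT and 7 in edc-4 against WT. With 1 library left out they ranged over 14 to 24, 15 to 24, 17 to 29 and, for the double mutant against edc-4, 2 to 5; they moved most without edc-3 replicate 2 or 3, edc-4 replicate 5, double replicate 2, and WT replicate 4 or 5, and against edc-4 also without edc-4 replicate 2 or double replicate 3 or 5. The cause of these shifts was not tested.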
